A study of Mus musculus with 8 samples.

Results

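Open chromatin was described at 10 genes of the Notch pathway in mouse mammary tumor cells: the receptors Notch1, Notch2, Notch3 and Notch4, the ligands Jag1, Jag2 and Dll1, the target genes Hes1 and Hey1, and Rbpj. A peak was assigned to a gene when it overlapped the gene body or lay within 10 kb of an annotated transcription start site. The peaks of the 8 ATAC-seq libraries, overlapping or touching peaks joined, gave 183173 regions, of which 136 (0.0742%) fell to these 10 genes. ATAC-seq marks open chromatin by the places where the Tn5 transposase inserts. The cells came from cultured lines of MMTV-PyMT mammary tumors (polyomavirus middle T oncogene under a mammary tumor virus promoter; strain given as FBV/N), either WT or with a conditional deletion of Lats1 (Lats1-CKO), a kinase of the Hippo pathway. Both genotypes carried the PyMT oncogene. Luminal cells had been sorted as EpCAM-high; CD49f-high and basal-like cells as EpCAM-low with high CD49f, and each sorted population was grown briefly before the assay. Every one of the 4 groups had 2 libraries: BM1 and BM5 for WT luminal, BM2 and BM6 for WT basal-like, BM3 and BM7 for Lats1-CKO luminal, and BM4 and BM8 for Lats1-CKO basal-like. The study calls its ATAC-seq replicates biological. The Cre line behind the deletion and which tumor or line gave each library are not given in the sources used here, an age and sex are stated for the PyMT tumors of the study but not for these lines, and p-values cover the spread between these libraries only.

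Notch receptors are single-pass membrane proteins. A ligand on a neighboring cell sets off cleavage by ADAM proteases and then by gamma-secretase, and the released intracellular domain enters the nucleus, where it joins the DNA-binding protein RBPJ and a Mastermind coactivator and switches on genes such as Hes1 and Hey1. Without the intracellular domain, RBPJ holds the same genes down with corepressors. In the mammary gland Notch signaling is known for its part in the luminal lineage.

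The libraries differed in length, and the part of this in the comparisons below was not tested. BM3 listed 14753 peaks, the other 7 libraries 51497 to 99022. Among those 7, the 3 Lats1-CKO libraries were all longer (86279 to 99022 peaks) than the 4 WT libraries (51497 to 72685). Each peak carries a score from the peak caller that is not scaled between libraries. It was therefore turned into a percentile within its own library, where 100 marks the highest-scoring peak and 0 is used for no peak. The same rank gives a higher percentile in a longer list, so results are also given on lists cut to equal length. Lats1 itself had a promoter peak in 7 libraries, at percentiles of 53.6 to 62.4 in WT and 74.7 to 81.5 in Lats1-CKO other than BM3, which had none. A promoter peak does not check the deletion, whose exons are not given in the sources used here. Epcam, the sorting marker, had no promoter peak in BM4 and BM8, both Lats1-CKO basal-like. Of 10 luminal markers, 9 to 10 had a promoter peak in BM1, BM2, BM5 and BM7 and 5 to 6 in the others, and of 8 basal markers 2 to 5 did. In BM4 and BM8, 3 and 4 of 6 immune markers and 5 and 4 of 6 fibroblast markers had one, against 0 to 2 and 0 to 4 elsewhere. Of 5 endothelial markers, 3 and 2 had one there, against 0 to 2 elsewhere. Gfap, listed as a gene of an absent tissue, had a promoter peak in 7 libraries, so such a peak alone does not identify a cell type. The part of other cell types in the results below was not tested.

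The 136 regions were spread over the genes unevenly: Rbpj held 34, Notch2 31, Notch1 17, Notch4 13, Hes1 11, Jag1 9, Jag2 8, Notch3 7, Dll1 4 and Hey1 2. Per kb of window, Hes1 was the densest at 0.501 regions, above 99.8% of 21755 protein-coding genes, followed by Notch4 at 0.304 and Notch1 at 0.230. Hey1 had 0.0969 per kb, below the median of 0.104 for protein-coding genes. By position, 80 regions lay in introns, 16 upstream, 12 on coding exons, 11 over a start site, 10 downstream and 7 on non-coding exon parts. For 89 of the 136 the nearest start site of any gene was the member's own. For many of the rest it belonged to an unnamed transcript inside the gene (Gm42819 and Gm42820 in Notch2) or to a neighbor, such as Nudt14 beside Jag2. A peak in all 8 libraries was found for 11 regions (8.09%, against 5.95% of all regions) and a peak in a single library for 54 (39.7%, against 44.5%). Per 10000 peaks of a library, the 10 genes held 9.79 ± 1.24 (SD, n = 4) for WT, while Lats1-CKO libraries held 9.37 ± 1.52 (SD, n = 4), so the genotypes overlapped.

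**Figure D1:**
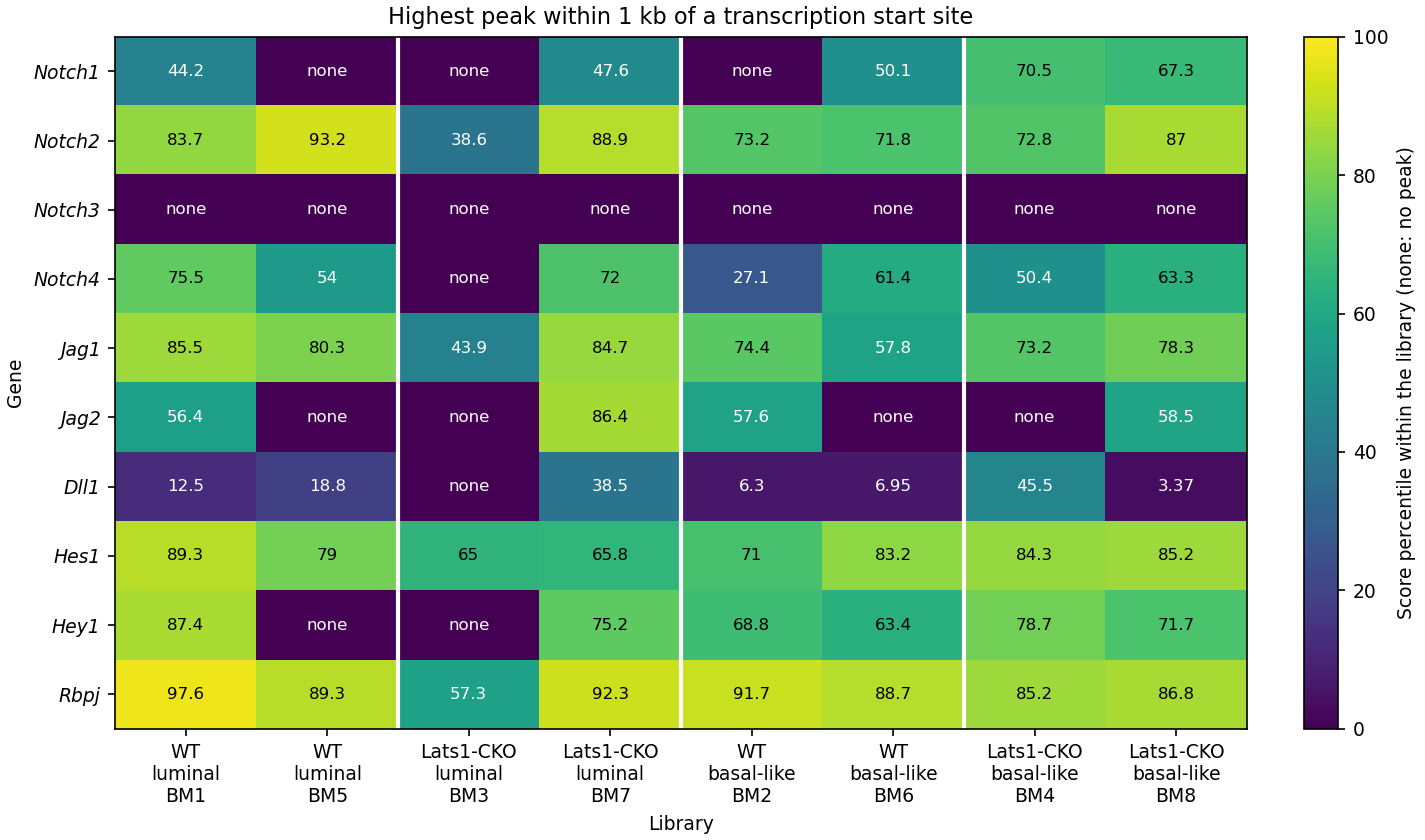
Score percentile of the highest peak within 1 kb of any start site of each gene (rows) in each library (columns, ordered by group), from 0 (no peak, dark) to 100 (yellow). Rbpj, Hes1, Jag1 and Notch2 have a promoter peak in all 8 libraries and Notch3 in none.

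At the receptors, promoter peaks ranged from absent to very strong. Notch2, the receptor with the most regions, had a promoter peak in every library: 83.7 and 93.2 in WT luminal, 73.2 and 71.8 in WT basal-like, 38.6 (BM3) and 88.9 in Lats1-CKO luminal, and 72.8 and 87.0 in Lats1-CKO basal-like. The groups overlapped, with BM3 the lowest library. The 93.2 of BM5 and the 73.2 of BM2 came from chr3:98013973-98014269, just inside the gene, and not from the region over the start site. Notch4, a receptor best known from blood vessels, stood at 75.5 and 54.0 in WT luminal, 27.1 and 61.4 in WT basal-like, 0 (BM3) and 72 in Lats1-CKO luminal, and 50.4 and 63.3 in Lats1-CKO basal-like. These Notch4 peaks did not sit at the 5′ end of the gene, where BM4 alone had one, but at internal start sites near its 3′ end, where chr17:34587448-34587751, on a coding exon, had the highest mean of the Notch4 regions. Notch3 had no peak within 1 kb of a start site in any library. Its most frequent regions lay inside the gene: the intronic region chr17:32161011-32161495 stood at 0 and 51.6 in WT luminal, 76.4 and 71.8 in WT basal-like, 0 and 62.3 in Lats1-CKO luminal, and 68.4 and 23.9 in Lats1-CKO basal-like.

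At Notch1 the start site that held a peak differed between libraries. Its promoter percentile was 44.2 and 0 in WT luminal, 0 and 50.1 in WT basal-like, 0 (BM3) and 47.6 in Lats1-CKO luminal, and 70.5 and 67.3 in Lats1-CKO basal-like. That value mixes different start sites. The gene (chr2:26457903-26516663, minus strand, mm10) has an outermost 5′ end at 26516663 and further starts downstream of it. The region over one of those, chr2:26503702-26503923, was open in both genotypes, at 44.2 and 0 in WT luminal, 0 and 50.1 in WT basal-like, 0 and 13.2 in Lats1-CKO luminal, and 48.5 and 13.7 in Lats1-CKO basal-like. The region at the outermost 5′ end, chr2:26516318-26516605, which covers part of a non-coding first exon and the intron after it, had no peak in any of the 4 WT libraries. It stood at 47.6 in BM7, 70.5 in BM4 and 67.3 in BM8, and had none in BM3. A second Notch1 region, chr2:26507502-26507807 in the intron between those starts, stood at 54.9 and 28.5 in WT luminal, 11.9 and 49.1 in WT basal-like, 0 (BM3) and 80.0 in Lats1-CKO luminal, and 79.1 and 74.7 in Lats1-CKO basal-like. Leaving BM3 aside, all Lats1-CKO libraries lay above all WT libraries in both regions. The most constant Notch1 region was chr2:26525759-26526034, upstream of the gene, with a peak in all 8 libraries at percentiles of 5.97 (BM3) to 96.7 (BM4).

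The sequences of the Notch1 regions that differed without BM3 are given on the strand of the gene, from the GRCm38.p6 assembly (the same primary sequence as mm10). Capitals mark matches on either strand to the core letters bound by RBPJ (TGGGAA), TEAD factors of the Hippo pathway (GGAATG), AP-1 (TGANTCA) and RUNX factors (TGTGGT). The first is cut to its intronic part, and regions over 300 bases are cut to their central 300. The first starts at the base after the upstream exon and holds 1 match for RBPJ, and the second holds 1 for AP-1.
Notch1 5′ region, chr2:26516318-26516541, minus strand: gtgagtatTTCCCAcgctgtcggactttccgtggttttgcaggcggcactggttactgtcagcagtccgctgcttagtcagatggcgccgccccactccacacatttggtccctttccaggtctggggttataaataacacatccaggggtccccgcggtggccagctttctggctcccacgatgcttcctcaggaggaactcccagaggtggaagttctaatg
Notch1 intronic region, chr2:26507504-26507803, minus strand: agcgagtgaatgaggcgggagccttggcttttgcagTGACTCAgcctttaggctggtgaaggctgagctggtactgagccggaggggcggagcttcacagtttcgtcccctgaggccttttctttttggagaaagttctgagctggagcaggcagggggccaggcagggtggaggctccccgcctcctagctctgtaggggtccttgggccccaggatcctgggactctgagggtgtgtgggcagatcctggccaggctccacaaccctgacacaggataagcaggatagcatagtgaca

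Notch2 (chr3:98013527-98150361, plus strand) had 31 regions, of which 7 held a peak in all 7 libraries other than BM3 and 2 in all 8. Over the start site, chr3:98013326-98013681 stood between 61.4 and 88.9 in the 7 longer libraries and at 38.6 in BM3. Deep in the gene, chr3:98056971-98057443 was the strongest intronic region, at 75.0 and 81.5 in WT luminal, 86.4 and 64.5 in WT basal-like, 21.3 (BM3) and 78.9 in Lats1-CKO luminal, and 94.8 and 91.7 in Lats1-CKO basal-like. In 3 other intronic regions the genotypes or the populations lay apart only when BM3 was left out, and none passed the adjustment over all regions described below. The region chr3:98024533-98024831, 11155 bases into the gene, stood at 36.6 and 0 in WT luminal, 12.3 and 0 in WT basal-like, 0 (BM3) and 74.6 in Lats1-CKO luminal, and 61.0 and 74.7 in Lats1-CKO basal-like. Without BM3 the genotypes did not overlap there. By contrast, at chr3:98020940-98021190, 7538 bases into the gene, the populations did not overlap without BM3. The region stood at 72.2 and 52.2 in WT luminal and 0 (BM3) and 62.3 in Lats1-CKO luminal, against 12.8 and 0 in WT basal-like and 0 in both Lats1-CKO basal-like libraries. A like split was seen at chr3:98036243-98036433, with 49.0 and 35.5 in WT luminal and 0 (BM3) and 51.8 in Lats1-CKO luminal, against 14.4 and 0 in WT basal-like and 0 in both Lats1-CKO basal-like libraries. In none of these 3 regions did any library rank the peak among its first 14753, the length of the BM3 list. The 3 regions are printed with the central 300 bases of the strongest intronic region, and the directions in their labels hold only without BM3. The one higher in Lats1-CKO holds 2 TEAD matches, those higher in luminal cells hold 1 RUNX match each and one of them 1 RBPJ match, and the strongest holds 1 AP-1 and 1 RUNX match.
Notch2 region higher in Lats1-CKO, chr3:98024533-98024831, plus strand: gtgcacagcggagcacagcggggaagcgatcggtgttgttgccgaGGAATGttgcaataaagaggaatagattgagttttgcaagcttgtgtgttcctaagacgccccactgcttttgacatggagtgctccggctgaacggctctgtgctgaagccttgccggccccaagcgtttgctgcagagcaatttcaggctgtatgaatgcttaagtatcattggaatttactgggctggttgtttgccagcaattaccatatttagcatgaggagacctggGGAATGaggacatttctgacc
Notch2 region higher in luminal, nearer the start, chr3:98020940-98021190, plus strand: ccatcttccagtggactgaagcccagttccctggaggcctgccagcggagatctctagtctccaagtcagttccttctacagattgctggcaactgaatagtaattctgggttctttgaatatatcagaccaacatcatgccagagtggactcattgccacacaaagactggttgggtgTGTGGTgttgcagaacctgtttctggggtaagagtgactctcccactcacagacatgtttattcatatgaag
Notch2 region higher in luminal, farther in, chr3:98036243-98036433, plus strand: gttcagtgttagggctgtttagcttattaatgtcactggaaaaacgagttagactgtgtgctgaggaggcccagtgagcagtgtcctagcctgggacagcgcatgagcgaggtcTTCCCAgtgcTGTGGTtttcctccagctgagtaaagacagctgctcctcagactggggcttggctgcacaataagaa
Notch2 strongest intronic region, chr3:98057057-98057356, plus strand: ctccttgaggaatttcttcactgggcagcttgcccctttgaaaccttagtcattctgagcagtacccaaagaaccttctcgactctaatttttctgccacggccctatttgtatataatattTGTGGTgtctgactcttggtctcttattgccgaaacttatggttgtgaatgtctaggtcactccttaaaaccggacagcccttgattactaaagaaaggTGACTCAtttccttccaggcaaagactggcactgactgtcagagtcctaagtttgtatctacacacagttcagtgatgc

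**Figure D2:**
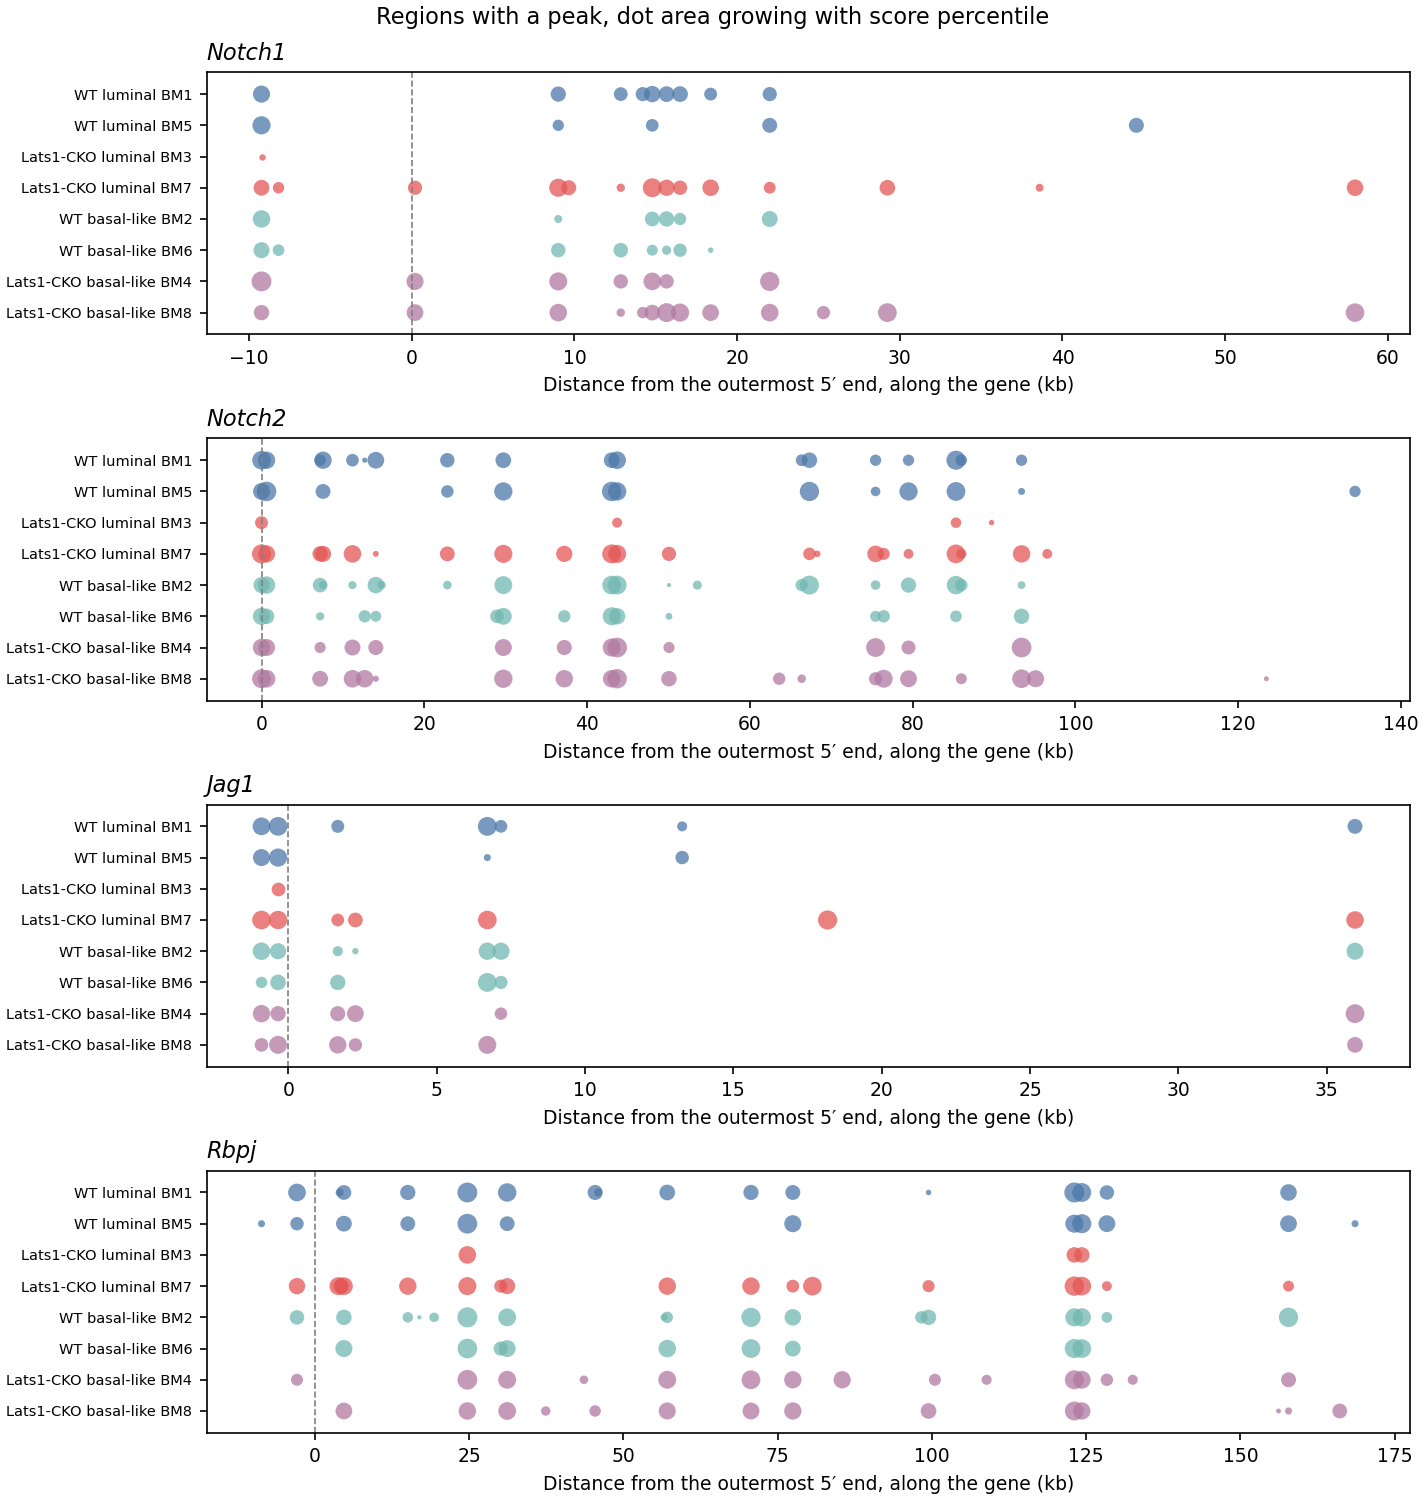
Regions of Notch1, Notch2, Jag1 and Rbpj by distance of their center from the outermost 5′ end of the gene (kb, x axis; dashed line at 0) in each library (rows, colored by group), with dot area growing with the score percentile. The dot at the Notch1 5′ end appears in BM7, BM4 and BM8 and in none of the WT libraries.

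Among the ligands, Jag1, which encodes the Jagged 1 ligand, was open throughout. Its promoter stood at 85.5 and 80.3 in WT luminal, 74.4 and 57.8 in WT basal-like, 43.9 (BM3) and 84.7 in Lats1-CKO luminal, and 73.2 and 78.3 in Lats1-CKO basal-like. Without BM3, the 3 luminal libraries all lay above the 4 basal-like libraries. The promoter values of BM2, BM4 and BM7 came from chr2:137117427-137117661, farther upstream than the region at the start site. The region at the start site, chr2:137116650-137117322, showed the same order, with 80.3 to 85.5 in the 3 luminal libraries and 55.3 to 78.3 in the basal-like libraries, and BM3 at 43.9. An intronic Jag1 region, chr2:137114212-137114549, had no peak in 3 WT libraries, 5.73 in BM2, none in BM3, and 51.2, 68.4 and 40.9 in BM7, BM4 and BM8. The part of the Jag1 promoter upstream of any annotated exon, from the RefSeq promoter table of the same assembly, holds none of the 4 motifs.
Jag1 promoter, chr2:137116645-137116770, minus strand: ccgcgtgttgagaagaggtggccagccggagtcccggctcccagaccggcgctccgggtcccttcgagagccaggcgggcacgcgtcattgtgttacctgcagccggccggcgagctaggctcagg

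Jag2, the other Jagged ligand, had a promoter peak in 4 libraries only, at 56.4 in BM1, 57.6 in BM2, 86.4 in BM7 and 58.5 in BM8, that is in 1 library of each group. The BM1 value came from the outermost start, chr12:112929753-112929904, where BM1 alone had a peak. The other values came from an internal start, chr12:112928407-112928666. Its constant region, chr12:112937936-112938212, lay upstream and 792 bases from a start of the neighbor Nudt14. It stood at 68.3 and 54.8 in WT luminal, 92.5 and 83.0 in WT basal-like, 20.1 (BM3) and 81.4 in Lats1-CKO luminal, and 79.0 and 75.9 in Lats1-CKO basal-like. Dll1, a Delta-like ligand, had the weakest promoter peaks of the genes that had one: 12.5 and 18.8 in WT luminal, 6.30 and 6.95 in WT basal-like, 0 (BM3) and 38.5 in Lats1-CKO luminal, and 45.5 and 3.37 in Lats1-CKO basal-like. Downstream of Dll1, in contrast, chr17:15365788-15366011 stood at 79.1 and 82.2 in WT luminal, 82.9 and 71.8 in WT basal-like, 0 (BM3) and 94.4 in Lats1-CKO luminal, and 88.5 and 86.1 in Lats1-CKO basal-like. Upstream of it, chr17:15378056-15378218 had a peak in every basal-like library, at 32.3, 27.8, 59.9 and 73.9 in BM2, BM6, BM4 and BM8, and in 1 luminal library, BM7, at 32.7.

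The target genes were open in nearly all libraries. Hes1, a repressor of the basic helix-loop-helix family and a classic Notch target, had a promoter percentile of 89.3 and 79.0 in WT luminal, 71.0 and 83.2 in WT basal-like, 65.0 (BM3) and 65.8 in Lats1-CKO luminal, and 84.3 and 85.2 in Lats1-CKO basal-like. It was the member that stood highest in BM3. The region over its start, chr16:30063908-30064488, held a peak in all 8 libraries. The promoter value of 79.0 in BM5 came from a coding exon instead, chr16:30066802-30067203, and the start region stood at 69.2 there. Around the gene, chr16:30070125-30070704, downstream of it, also held a peak in all 8 libraries, from 30.3 in BM3 to 87.4 in BM7. Upstream, chr16:30057053-30057311 had no peak in any WT library and none in BM3, against 31.7, 45.8 and 53.0 in BM7, BM4 and BM8. Hey1, a related repressor, had a promoter peak in 6 libraries: 87.4 and 0 in WT luminal, 68.8 and 63.4 in WT basal-like, 0 (BM3) and 75.2 in Lats1-CKO luminal, and 78.7 and 71.7 in Lats1-CKO basal-like. Its other region, chr3:8664623-8664867 on a coding exon, held a peak in all 8 libraries between 54.1 and 86.3.

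Rbpj, the DNA-binding partner of all 4 receptors, had the highest mean promoter percentile of the 10 genes in both genotypes, though Hes1 stood higher in BM3 and Notch2 in BM5 and BM8: 97.6 and 89.3 in WT luminal, 91.7 and 88.7 in WT basal-like, 57.3 (BM3) and 92.3 in Lats1-CKO luminal, and 85.2 and 86.8 in Lats1-CKO basal-like. These values mix several regions. In BM1, BM4, BM6, BM7 and BM8 the highest peak within 1 kb of a start lay in chr5:53588943-53589532. This region is intronic, centered at -976 bases from the main start, and its strongest BM4 peak, at 88.1, lay beyond 1 kb. In BM2 the highest peak lay at an internal start, chr5:53623790 onwards. The former region held a peak in all 8 libraries, at 97.6 and 79.4 in WT luminal, 79.6 and 88.7 in WT basal-like, 57.3 (BM3) and 92.3 in Lats1-CKO luminal, and 88.1 and 86.9 in Lats1-CKO basal-like, and its groups overlapped. The region over the main start, chr5:53590155-53590737, stood at 86.7 and 89.3 in WT luminal, 81.4 and 85.6 in WT basal-like, 57.3 (BM3) and 85.5 in Lats1-CKO luminal, and 77.5 and 72.8 in Lats1-CKO basal-like. The highest mean percentile of all Rbpj regions was that of chr5:53490544-53491189, in the first intron of the transcript with the outermost 5′ end and 24714 bases from that end. It stood at 96.6 and 95.5 in WT luminal, 98.3 and 93.9 in WT basal-like, 75.3 (BM3) and 79.1 in Lats1-CKO luminal, and 95.2 and 74.0 in Lats1-CKO basal-like, so that a single Lats1-CKO library, BM4, reached into the WT range. The mean was 96.1 in WT and 80.9 in Lats1-CKO, a difference of -15.2 (exact permutation p = 0.0571, n = 4 and 4, adjusted p = 1). Nearer the 5′ end, the populations lay apart at chr5:53481106-53481321 only without BM3. The region stood at 54.9 and 51.6 in WT luminal and 0 (BM3) and 73.0 in Lats1-CKO luminal, against 23.8 and 0 in WT basal-like and 0 in both Lats1-CKO basal-like libraries. The central 300 bases of the strong intronic region hold 2 AP-1 matches and 1 RUNX match, the luminal region 1 AP-1 match, and the promoter part upstream of the exon 1 TEAD and 1 RBPJ match.
Rbpj strongest intronic region, chr5:53490716-53491015, plus strand: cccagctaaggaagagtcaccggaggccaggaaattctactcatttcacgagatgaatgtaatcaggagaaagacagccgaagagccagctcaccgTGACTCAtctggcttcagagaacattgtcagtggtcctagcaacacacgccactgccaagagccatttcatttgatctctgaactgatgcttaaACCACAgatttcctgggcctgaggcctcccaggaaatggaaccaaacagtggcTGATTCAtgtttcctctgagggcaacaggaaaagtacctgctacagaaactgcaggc
Rbpj region higher in luminal, chr5:53481106-53481321, plus strand: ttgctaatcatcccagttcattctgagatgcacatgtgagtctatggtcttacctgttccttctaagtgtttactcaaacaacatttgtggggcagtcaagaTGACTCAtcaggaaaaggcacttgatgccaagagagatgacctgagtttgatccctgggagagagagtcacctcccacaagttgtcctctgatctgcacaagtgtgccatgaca
Rbpj promoter, chr5:53590096-53590213, plus strand: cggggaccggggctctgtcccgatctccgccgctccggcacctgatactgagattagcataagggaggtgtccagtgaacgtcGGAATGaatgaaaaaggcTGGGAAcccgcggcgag

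With the deposited lists of all 8 libraries, no member region and no member promoter separated the genotypes or the populations. A region was called when every library of one group lay above every library of the other, the arrangement with the smallest two-sided exact permutation p of 0.029 for 4 against 4 libraries. By genotype 0 of 136 member regions were called in either direction, against 0.340% of all regions higher in WT and 0.0628% higher in Lats1-CKO. By population 0 were called, against 0.0502% higher in luminal and 0.527% higher in basal-like. None had an unadjusted p under 0.05 in either comparison. Of the 9 member promoters with a peak, 0 were called by genotype in either direction (0.960% of all promoters) and 0 by population (0.178% in luminal and 0.754% in basal-like). The lowest p of a member promoter was 0.143 by genotype (exact permutation test, Rbpj) and 0.229 by population (exact permutation test, Notch1). These values do not show that the groups were alike, since BM3, a Lats1-CKO luminal library, is at 0 in 121 of the 136 regions. In sorted populations, fewer cells with open chromatin at a site and less opening per cell cannot be told apart.

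Leaving out BM3 gave 3 Lats1-CKO against 4 WT libraries, and 13 of 135 member regions (9.63%) were then higher in Lats1-CKO, against 5.55% of all regions, while 0 were higher in WT (0.355%). They were 5 regions of Notch2, 2 each of Notch1, Dll1 and Hes1, and 1 each of Notch4 and Jag1. Their unadjusted p ranged from 0.0286 to 0.0857 (exact permutation test), and none passed Benjamini-Hochberg adjustment over all regions (adjusted p = 0.675 for all 13). The 3 Lats1-CKO lists were also longer than the 4 WT lists, and the part of this in the count was not tested. When each of the 7 libraries was cut to its 50000 highest-scoring peaks and percentiles were taken within those, 3 of 100 member regions were higher in Lats1-CKO, against 1.99% of all regions, and 3 in WT, against 2.00%. All 3 of the former were among the 13: both Notch1 regions above and chr3:98024533-98024831 of Notch2. On these lists the Notch1 5′ region stood at 49.1, 2.01 and 35.3 in BM4, BM7 and BM8 and at 0 in WT, below the median of the list in every library. The Notch2 region stood at 32.7, 52.5 and 49.9 in the same libraries, against 7.80 in BM1 and 0 in the other WT libraries.

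The 3 regions higher in WT on the equal lists were the strong intronic region of Rbpj, its main start, and a region just inside Notch2. The Rbpj intronic region stood at 95.0 and 94.7 in WT luminal, 97.6 and 93.7 in WT basal-like, and 60.9, 91.6 and 48.6 in BM7, BM4 and BM8. Its mean differed by -28.2 in Lats1-CKO (exact permutation p = 0.0286, the smallest possible, n = 3 and 4, adjusted p = 0.854). The Rbpj main start stood at 73.8 to 87.5 in WT and at 46.2 to 73.0 in Lats1-CKO, and the Notch2 region chr3:98013973-98014269, just inside the gene, at 55.7 to 92.0 in WT and 47.1 to 52.1 in Lats1-CKO. The Rbpj region before the main start was not called on these lists, with a difference of -3.28 (exact permutation p = 0.657, adjusted p = 1). As a list length that BM3 also reaches, 10000 peaks were taken from each of the 8 libraries. The Rbpj intronic region then stood at 75.2 and 73.4 in WT luminal, 88.2 and 68.5 in WT basal-like, 63.6 (BM3) and 0 in Lats1-CKO luminal, and 58.1 and 0 in Lats1-CKO basal-like. All 4 WT libraries lay above all 4 Lats1-CKO libraries (exact permutation p = 0.0286, adjusted p = 1), 1 of 23 member regions with a peak in these lists, against 0.716% of all regions. No member region was higher in Lats1-CKO (0.518%), in luminal (0.684%) or in basal-like (0.534%) there. The Rbpj promoter was the 1 of 5 member promoters higher in WT (0.733% of all promoters), at 37.3 to 82.6 in WT and 0 to 37.0 in Lats1-CKO, and none was higher in Lats1-CKO (1.14%), luminal (1.28%) or basal-like cells (0.301%).

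By population and without BM3, 5 of 135 member regions were higher in the 3 luminal libraries, against 1.11% of all regions, and 0 in the basal-like libraries, against 0.532%. On equal lists of 50000 peaks, 7 of 100 were higher in luminal (1.44% of all regions) and 1 in basal-like (0.925%), and 4 of the luminal regions were shared by both settings: the pair in Notch2, the Jag1 start region and the Rbpj region near its 5′ end. The adjusted p was 1 for every one of them. On the equal lists the Jag1 start region stood at 78.9, 76.8 and 67.6 in BM1, BM5 and BM7, against 46.7, 56.6, 22.8 and 57.0 in BM2, BM6, BM4 and BM8. The Rbpj and both Notch2 regions had no peak in any basal-like library on these lists, against 34.5 to 49.6, 29.5 to 59.7 and 9.85 to 25.8 in luminal libraries. The region higher in basal-like cells was the one upstream of Dll1, at 4.59 to 48.3 in basal-like libraries and without a peak in the luminal ones. These regions were named after their values were seen.

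**Figure D3:**
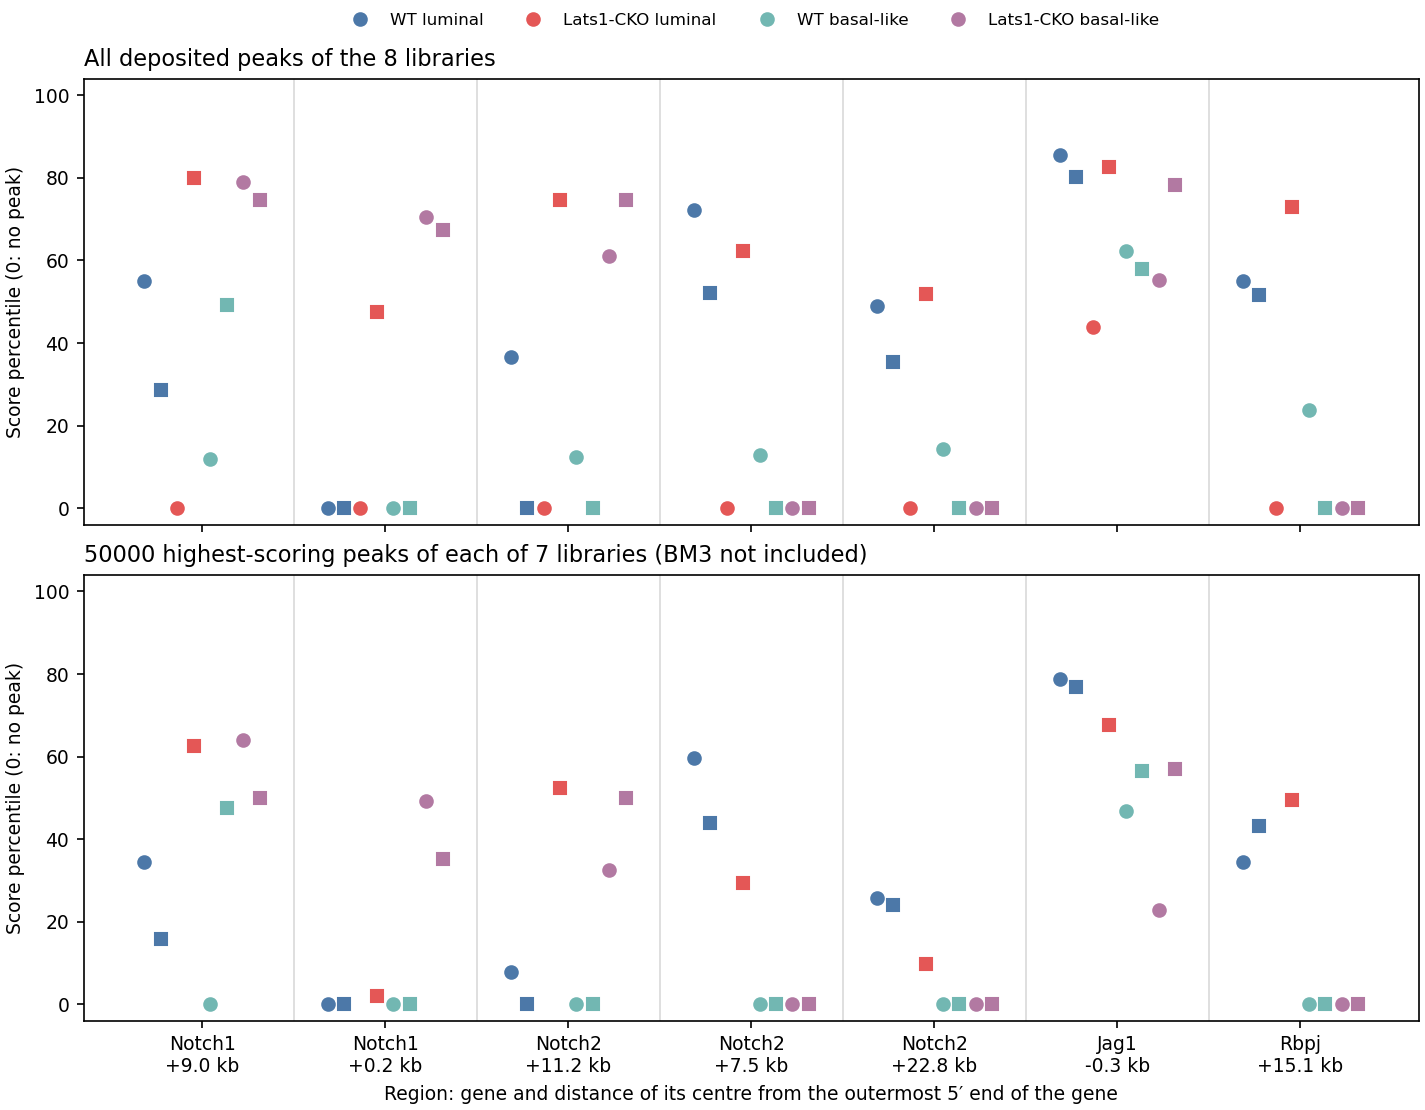
Score percentile (y axis) of the 7 regions that separated the groups without BM3 both on all peaks and on equal lists, by library (colors by group; circles for BM1 to BM4 and squares for BM5 to BM8). The upper panel uses all deposited peaks of the 8 libraries and the lower panel the 50000 highest-scoring peaks of 7 libraries, and the left 3 regions are higher in Lats1-CKO and the right 4 in luminal cells.

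For promoters without BM3, 0 of 9 member promoters were higher in Lats1-CKO, against 9.52% of all promoters, and 0 in WT (0.689%). Jag1 was the 1 of 9 higher in luminal (2.62%), and 0 were higher in basal-like (0.755%). On the equal lists Jag1 and Notch2 were higher in luminal, against 3.0% of all promoters, Rbpj was higher in WT, against 3.92%, and 0 were higher in Lats1-CKO (2.67%) or basal-like (1.04%). The Notch2 promoter stood at 76.3, 92.0 and 79.3 in BM1, BM5 and BM7 and at 53.1 to 74.2 in the basal-like libraries. The Notch2 value mixes regions, and the 92.0 of BM5 came from the region just inside the gene. Over the start site BM5 stood at 63.25, below BM6 at 71.0 and BM8 at 74.2. Neither region separated the populations by itself. The Rbpj promoter stood at 87.5 to 96.5 in WT and at 74.0 to 85.7 in Lats1-CKO. It also mixes regions, of which only the main start separated the genotypes by itself.

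**Figure D4:**
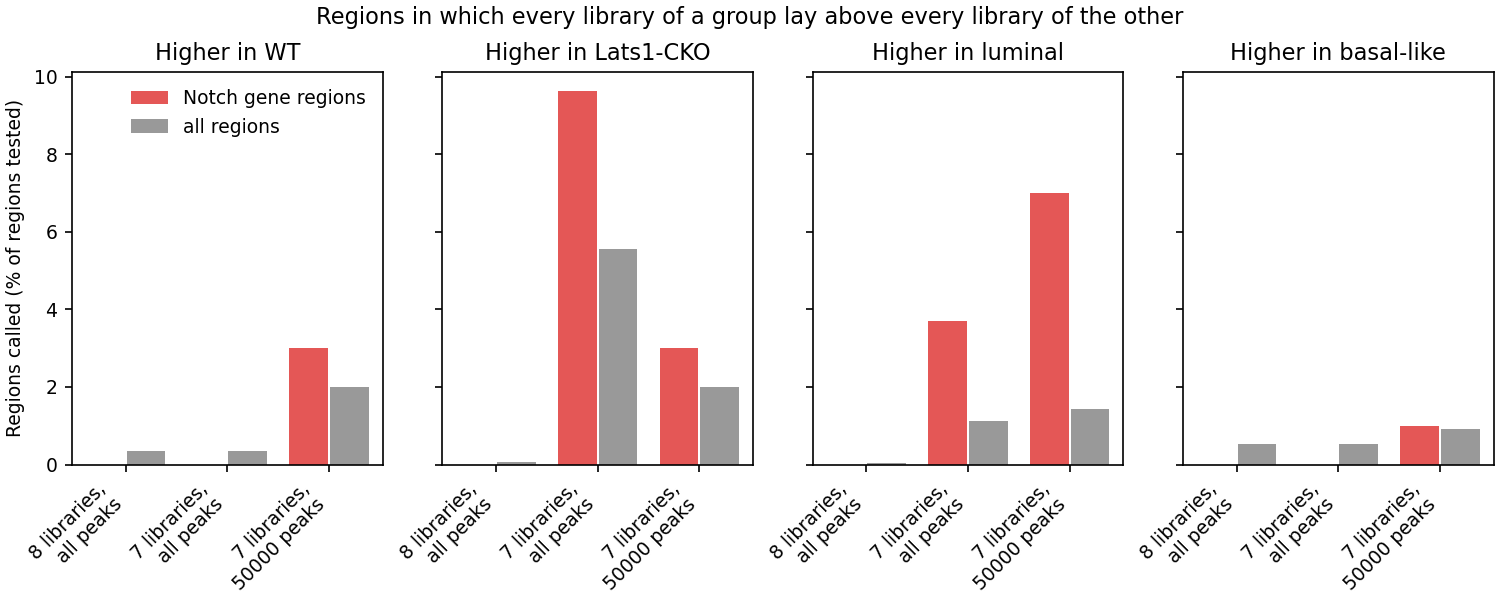
Percent of regions tested (y axis, from 0) in which every library of the named group lay above every library of the other, for Notch gene regions (red) and all regions (gray), under 3 choices of libraries and lists. The share higher in Lats1-CKO falls from 9.63% to 3% for the Notch genes and from 5.55% to 1.99% for all regions when the lists are cut to equal length.

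Within one population or genotype, 2 libraries stood against 2, which cannot reach a p of 0.05, so counts are given without a test. Among basal-like libraries, 27 of 113 member regions were higher in Lats1-CKO (17.5% of all regions) and 6 in WT (3.40%). On equal lists the order turned, with 8 of 82 higher in Lats1-CKO (8.96%) and 15 in WT (10.7%). Among WT libraries, 12 of 95 were higher in luminal (8.70%) and 6 in basal-like (6.28%), and on equal lists 11 of 82 (8.48%) and 6 (8.77%). In the comparisons that hold BM3, the shortest list, whose part in them was not tested, 14 of 100 were higher in WT luminal (9.25%) and 0 in Lats1-CKO luminal (0.488%), and within Lats1-CKO 2 of 117 were higher in luminal (0.704%) and 19 in basal-like (14.8%).

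Of 43 further genes of the pathway (other ligands, glycosyltransferases that modify the receptors, proteases, coactivators, corepressors, ubiquitin ligases and further targets), 41 had a promoter peak in at least 1 library. With all 8 libraries 1 was called by genotype (2.44%, against 0.960% of all promoters in either direction): Hes6, which encodes an atypical Hes protein that counters HES1, was higher in Lats1-CKO. It stood at 91.6 and 90.2 in WT luminal, 85.1 and 89.6 in WT basal-like, 91.8 (BM3) and 96.1 in Lats1-CKO luminal, and 97.1 and 97.4 in Lats1-CKO basal-like. BM3 lay just above the highest WT library. The mean differed by 6.49 (exact permutation p = 0.0286, the smallest possible, adjusted p = 1), and none of the other 40 was called by genotype or population. On the equal lists of 50000 peaks Hes6 remained higher in Lats1-CKO, with 92.6 to 95.1 against 79.0 to 89.2 (1 of 37 genes, 2.70%, against 2.67% of all promoters), and Kat2b, an acetyltransferase that works with the Notch coactivators, was higher in WT, with 55.1 to 82.4 against 28.7 to 38.7 (2.70%, against 3.92%).

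The 4 motifs were counted in the central 300 bases of every region, on both strands. TGGGAA and GGAATG share the letters GGAA, so that one stretch can match both. TGGGAA was found in 50 of 136 member regions (36.8%, exact 95% interval 28.7 to 45.5) and in 28.0% of all regions, TGTGGT in 33.1% (25.3 to 41.7) and 27.8%, TGANTCA in 22.1% (15.4 to 30.0) and 29.5%, and GGAATG in 19.1% (12.9 to 26.7) and 21%. The intervals cover counting error only. For the RBPJ letters alone the interval lay above the share of all regions. Searched over the whole region in place of the central part, TGGGAA was found in 25.7% of member regions (18.6 to 33.9) and 18.6% of all, so that the interval reached the share of all regions. Member regions were wider, with a median of 217.5 bp against 153 bp. In the 300-base RefSeq promoters, present for 8 of the 10 genes (not Hes1 and Hey1), TGGGAA was found for Rbpj only, against 25.6% of all promoters, and GGAATG for Notch1, Notch4 and Rbpj, against 14.7%. TGANTCA was found for Dll1 and Notch4, against 7.81% of all promoters, and TGTGGT for none of these genes, against 16.8%. A match describes letters and is not a measured binding site.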

How the data were processed

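The 8 ATAC-seq libraries are peak lists on mm10. Before they deposited them, the authors trimmed reads with cutadapt, aligned them with Bowtie 1.0.0, kept unique alignments, removed mitochondrial reads and duplicates (Picard 2.3.0 in the submitters' processing notes) and fragments over 120 bases, called peaks in each library with MACS2 (2.1.1.20160309 in the submitters' notes) and removed blacklisted regions. The deposited score is a whole number of at least 13 for each peak, taken to be that of MACS2 and not scaled between libraries. Read counts were not used here, so depth is unknown and the read-count comparison of the study was not repeated. The study set aside 1 Lats1-CKO luminal replicate for quality without naming it in its text, and both are shown here.

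Here overlapping or touching peaks were joined into regions, scores turned into percentiles within a library, and regions annotated with GENCODE M21. Promoters were taken as 1 kb on either side of any start site. Groups were compared by the two-sided exact permutation test of mean percentiles over all regions or promoters, with Benjamini-Hochberg adjustment, in Python 3.11.15 with NumPy 2.4.6 and SciPy 1.17.1. The functions were tested on simulated data. By rule, the text names any region called with all 8 libraries (there was none), those with a peak in all 8 libraries and the one with the highest mean percentile of each gene. Further regions, among them some of those called without BM3 or on equal lists, were chosen after their values were seen. The members, the 43 further genes and the lists were chosen with earlier results of these data known. Libraries were left out in turn, lists were shortened to 10000 peaks or to those above the median score, presence replaced the percentile, and overlap, promoter reach and start sites were varied. The lists of 50000 peaks were added after seeing the data.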

Additional observations from a re-analysis of the deposited data

Results flagged for a closer look

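Of 40 sets of 4 libraries (9 promoters and the peaks per 10000, each over WT, Lats1-CKO, luminal and basal-like), 5 held a library whose gap to the others exceeded Dixon's critical value for 4 samples. For independent, normally distributed values chance alone gives about 1 in 20. The sets share libraries, pool groups and mostly hold percentiles with 0 for no peak, so that rate need not hold here. In 2 of the 5 sets the library was BM3: the Hey1 promoter was at 0 there, against 71.7 to 78.7 in the other Lats1-CKO libraries, and the Jag1 promoter at 43.9, against 80.3 to 85.5 in the other luminal libraries. The other 3 were basal-like libraries. The Notch2 promoter stood at 87.0 in BM8, against 71.8 to 73.2. The Dll1 promoter stood at 45.5 in BM4, against 3.37 to 6.95. The Hes1 promoter stood at 71.0 in BM2, against 83.2 to 85.2.

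In 3 regions the genotypes lay apart in opposite directions in the populations, a difference that was not tested. The share of all regions with such a crossing was not taken, so the count is not a result particular to the Notch genes. Of all regions, 9.25% were higher in WT among luminal libraries and 17.5% higher in Lats1-CKO among basal-like libraries. At the Hes1 start, chr16:30063908-30064488, Lats1-CKO minus WT was -13.9 in luminal cells (65.0 and 65.8 against 89.3 and 69.2) and 7.66 in basal-like cells (84.3 and 85.2 against 71.0 and 83.2), a difference of 21.5 between the populations. At the Notch1 intronic region chr2:26494421-26494894 it was -34.2 and 52.6, a difference of 86.7. At the Rbpj intronic region chr5:53543491-53543736 it was -42.6 and 9.76, a difference of 52.4. In the last 2 regions BM3 had no peak, and in all 3 the luminal value rests on BM3 and BM7.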

How the results depend on the processing

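Over all 8 libraries the counts of called member regions and promoters were 0. Leaving out each library in turn, the called member regions ranged from 0 to 4 higher in WT, 0 to 13 in Lats1-CKO, 0 to 5 in luminal and 0 to 4 in basal-like, and the called promoters from 0 to 1 in WT, luminal and basal-like. The 13 and the 5 arose without BM3, where 5.55% of all regions were higher in Lats1-CKO and 1.11% in luminal. For the other libraries left out, no share of all regions or promoters was taken. Those counts are therefore not results particular to the Notch genes. The 4 higher in WT arose without BM6 and the 4 in basal-like without BM7, while the single promoters were Rbpj without BM7, Jag1 without BM3 and Notch1 without BM2. With 10000 peaks a library, 1 region and 1 promoter, both of Rbpj, were higher in WT, the promoter only as a value that mixes several regions. With 50000 peaks and without BM3, 3 regions were higher in WT, 3 in Lats1-CKO, 7 in luminal and 1 in basal-like, and 1 promoter was higher in WT and 2 in luminal. Of the promoters in luminal, that of Notch2 mixes regions that did not separate the populations by themselves. Within basal-like libraries 50000 peaks changed 27 regions higher in Lats1-CKO to 8 and 6 higher in WT to 15. Over whole regions the RBPJ share was 25.7%, the RUNX share 25.0% and the TEAD share 16.9%, while the AP-1 share stayed at 22.1%. Among the 7 regions apart on both kinds of list, 6 had no peak among the first 10000 of any library. The cause of the changes between settings was not tested. The counts stayed at 0 with peaks above the median score, presence of a peak, a stricter overlap between peak and region, own-start regions, promoters of 5 kb and the outermost 5′ end. Hes6 kept its call under every alternative except presence of a peak, where every library scored 1. No paired analysis was possible because the labels carry library names but no replicate number that ties libraries of different groups; the numbers used here follow the order of the libraries. With peak lists alone, a missing peak may be a site below the caller's threshold.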
